A study of Rattus norvegicus with 56 samples.

Results

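Acetylation of histone H3 at lysine 9 (H3K9ac) was compared between ipsilateral brain tissue of 21-month rats that had received rat plasma and the same tissue without plasma. All animals had intracerebral haemorrhage, a bleed into the brain, and the ipsilateral side is the side of the bleed. One group is described as given plasma of 3-month rats and another as given plasma of 22-month rats, and the untreated group has no agent. These 3 groups hold 4 of the 56 libraries of the series, with 1 ChIP library for each plasma and 2 for untreated tissue, and they were chosen by mark, side, age and agent in the labels. The series has 28 ChIP and 28 input libraries in 16 peak lists. Untreated H3K9ac lists of the 21-month contralateral side and of both sides at 13 months, with 2 ChIP libraries each, served as references. The labels give old untreated rats as 21 months, whereas the design text of the series says 22 months. They give neither strain and sex nor the plasma dose, route and time of sampling. They also do not say whether libraries came from separate animals, and no untreated group was given a vehicle in place of plasma.

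H3K9ac is laid down by acetyltransferases and removed by deacetylases and sirtuins. It marks active promoters and, more weakly, enhancers, whereas trimethylation of lysine 4 (H3K4me3) is concentrated at promoters. Trimethylation of lysine 27 (H3K27me3) is laid down by Polycomb complexes over silent genes and, together with H3K4me3, over poised promoters. In the account below a peak is promoter-type when it lies within 2 kb of an H3K4me3 peak of untreated 21-month ipsilateral tissue, a list of 30356 peaks, and distal otherwise. A distal peak is therefore a candidate enhancer at most, and no gene was assigned to any peak. Brain cell type markers were not looked up for the same reason, so the tissue label was not checked.

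Peak lists were called on pooled libraries of a group, so each group has a single list and no spread between animals can be computed. Intervals are 95% Wilson intervals over peaks and cover counting error only. Both plasma lists come from a separate processing run, named by a folder in the file headers, and from 1 ChIP library each. Plasma, run and number of libraries cannot be told apart in any comparison with untreated tissue. The comparisons of the plasmas with untreated tissue also share the untreated list, so their values stand side by side and are not independent.

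The list with plasma of 3-month rats held 50651 peaks over 36.3 Mb, the list with plasma of 22-month rats 123863 peaks over 84.0 Mb and the untreated list 102607 peaks over 60.6 Mb. The plasma libraries kept 57426239 and 56130825 ChIP tags, with 30% duplicates in both, and 52175480 and 45651518 input tags. The untreated pool kept 66910243 ChIP tags at 22% duplicates. Depth varied more among the references, from 19323327 tags at 82% duplicates (13-month ipsilateral) and 46299770 at 55% (13-month contralateral) to 99213634 at 13% (21-month contralateral). The part of this depth in how near each reference lay was not tested. Strong peaks were much fewer with plasma of 3-month rats, where 682 peaks reached a fold enrichment of 8 over the local background, against 10261 with plasma of 22-month rats and 5736 in untreated tissue. Among the other references this number ran from 1215 in 21-month contralateral tissue to 10681 in 13-month ipsilateral tissue. Fold and −log10 q are the authors' own values for each peak, and no correction was made for the background of each library.

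Because a long list overlaps more by its length alone, every list was cut to its 50651 peaks of highest −log10 q. Cut this way, the lists held nearly the same mixture of peaks. Promoter-type peaks made up 52.2% of the list with plasma of 3-month rats, 49.0% with plasma of 22-month rats and 52.0% of the untreated list. The weakest peak kept differed, however. It had a −log10 q of 1.31 with plasma of 3-month rats, 5.26 with plasma of 22-month rats and 7.43 in untreated tissue, so the equal number reached the bottom of the first list only. Promoter-type peaks had a median length of 763 bp, 1281 bp and 936 bp in the same order, and distal peaks 329 bp, 533 bp and 421 bp.

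Promoter acetylation was largely shared with untreated tissue after either plasma, whereas distal acetylation was not. The same contrast held without plasma. Pairs of untreated lists, described below, shared 80.1% to 85.3% of promoter-type and 27.8% to 39.5% of distal peaks. With plasma of 3-month rats, 24204 of 50651 peaks (47.8%) overlapped an untreated peak by at least 1 bp, and 52.2% did not. Split by class, 20768 of 26460 promoter-type peaks (78.5%, interval 78.0 to 79.0) but 3436 of 24191 distal peaks (14.2%, interval 13.8 to 14.6) were shared. The shares without an untreated peak were thus 21.5% and 85.8%. With plasma of 22-month rats, 29504 of 50651 peaks (58.2%) were shared and 41.8% were not. Here, 20554 of 24835 promoter-type peaks (82.8%, interval 82.3 to 83.2) and 8950 of 25816 distal peaks (34.7%, interval 34.1 to 35.3) were shared, which left 17.2% and 65.3% without an untreated peak.

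Counted from the untreated side, the contrast between the plasmas was larger. Of 26331 untreated promoter-type peaks, 19584 (74.4%) had a peak with plasma of 3-month rats and 23135 (87.9%) had one with plasma of 22-month rats. No peak was found for 25.6% and 12.1% of them. Of 24320 untreated distal peaks, 3273 (13.5%) and 9489 (39.0%) had a peak, and 86.5% and 61.0% had none. Over both classes, 54.9% of untreated peaks had none with plasma of 3-month rats and 35.6% had none with plasma of 22-month rats.

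Pairs of untreated lists gave a measure of how far such lists differ without plasma. The 4 untreated H3K9ac lists pool 2 ChIP libraries each, whereas each plasma list has 1. The 13-month and 21-month lists also come from different processing folders, so pairs across ages differ in run too. The 12 ordered pairs among these 4 lists, which differ in side, age or both, shared 80.1% to 85.3% of promoter-type and 27.8% to 39.5% of distal peaks. Plasma of 22-month rats fell within or above these ranges in both directions. Plasma of 3-month rats fell below both ranges in both directions (78.5% and 74.4% at promoters, 14.2% and 13.5% at distal sites). Replacing each peak by a window of 250 bp on either side of its summit, which removes differences of length, gave 13.5% for distal peaks with plasma of 3-month rats and 30.7% with plasma of 22-month rats. Untreated pairs then ran from 25.9% to 35.4%. With the strongest 8000 distal peaks of each list, a comparison added after the values were seen, the shares were 9.03% and 33.6%, against 26.99% to 39.5% between untreated lists.

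Uncut lists gave the same order of the plasmas for distal peaks. Counted from the plasma side, the order was reversed at promoters and over all peaks. Of the 50651 peaks with plasma of 3-month rats, 44.1% had no peak in the full untreated list, 16.3% at promoters and 74.6% at distal sites. Of the 123863 peaks with plasma of 22-month rats, 71.5% of them distal, 53.6% had no untreated peak, 25.7% at promoters and 64.7% at distal sites. From the untreated side, 72.7% of 102607 peaks had none with plasma of 3-month rats, 37.7% of 35186 at promoters and 90.9% of 67421 at distal sites. For plasma of 22-month rats these shares were 38.5%, 13.6% and 51.4%.

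**Figure D1:**
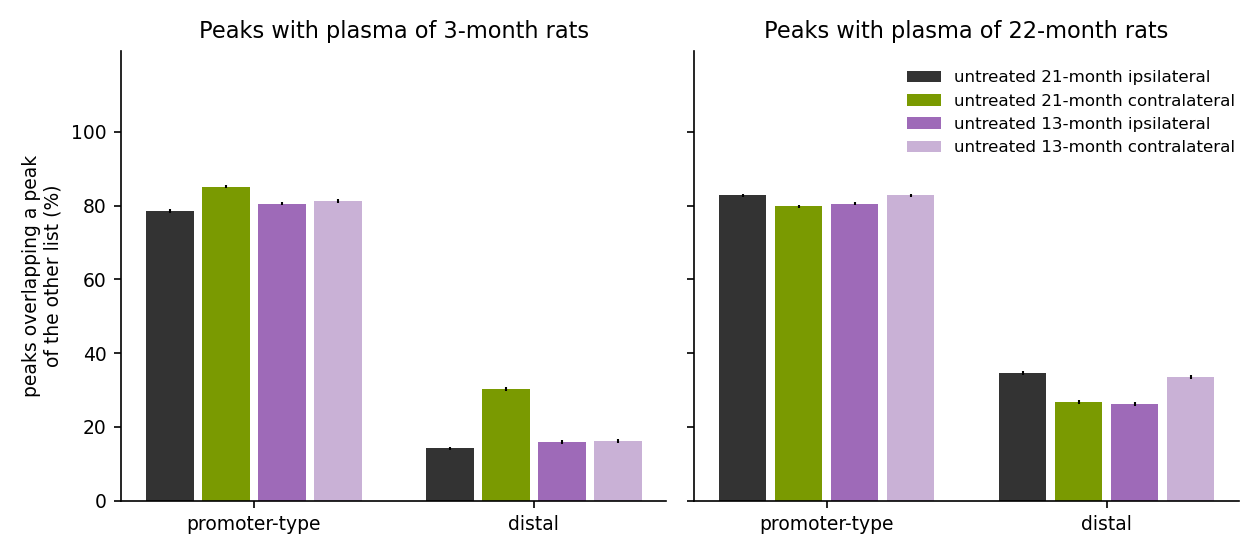
Share of H3K9ac peaks with each plasma (vertical axis, %) that overlap a peak of the named untreated list, by class, with every list cut to 50651 peaks; thin bars are 95% Wilson intervals over peaks. Promoter-type shares sit between 78.5% and 85.1% throughout, whereas distal shares with plasma of 3-month rats are 14.2% to 16.1% except for 30.3% in 21-month contralateral tissue.

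The list nearest to each plasma differed, and distal peaks carried the difference. With plasma of 3-month rats, 59.0% of peaks overlapped the 21-month contralateral list, against 50.1% and 49.7% for the contralateral and ipsilateral lists at 13 months and 47.8% for the untreated list of the same side and age. At distal sites the shares were 30.3%, 16.1%, 15.9% and 14.2%. The intervals of the first (29.7 to 30.9) and last (13.8 to 14.6) cover counting error over the same peaks only, not variation between libraries. At promoters the contralateral 21-month list was also highest, at 85.1% against 78.5% for untreated ipsilateral tissue. This did not hold with peaks ranked by fold, where the contralateral list was lowest at promoters (76.1%, against 78.3% for untreated ipsilateral and 80.2% for 13-month ipsilateral tissue). In the reverse direction, 27.5% of 24372 contralateral distal peaks had a peak with plasma of 3-month rats, against 13.5% of untreated ipsilateral ones. The lists of plasma of 3-month rats and 21-month contralateral tissue also had the fewest peaks of fold 8 or more, 682 and 1215. Their promoter-type median folds after the cut, 3.74 and 4.26, were the lowest too. At distal sites the medians were 3.22 and 3.61, with 3.38 in untreated ipsilateral tissue. The part of low fold in this and later groupings was not tested.

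Plasma of 22-month rats gave another order. Its peaks overlapped the untreated ipsilateral list at 58.2%, the 13-month contralateral list at 57.7%, the 13-month ipsilateral list at 52.9% and the 21-month contralateral list at 52.8%. At distal sites these shares were 34.7%, 33.5%, 26.2% and 26.8%. At promoters the untreated ipsilateral and the 13-month contralateral list gave the same 82.8%. At 50651 peaks the library with plasma of 22-month rats was therefore nearest to untreated tissue of its own side and age. Tissue of the 13-month contralateral side was close behind, and the last pair in this order did not differ beyond counting error over all peaks.

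The list that was highest at distal sites was the same in each setting that left at least 200 distal peaks. Cuts to 1000, 5000 and 10000 peaks did not. Among the 3 lists of untreated 21-month ipsilateral, 21-month contralateral and 13-month ipsilateral tissue, the contralateral list held most distal peaks with plasma of 3-month rats in 13 of 13 settings. The untreated ipsilateral list held most of those with plasma of 22-month rats in 13 of 13. At promoters the contralateral list was highest for plasma of 3-month rats in 11 of 15 settings and lowest in 4, and the untreated ipsilateral list was highest for plasma of 22-month rats in 11 of 15. Over all peaks the same lists were highest in 10 of 13 settings for each plasma. The exceptions were the cuts to 1000, 5000 and 10000 peaks, which are nearly all promoter-type. There 13-month ipsilateral tissue was the highest of the 3 and 21-month contralateral tissue the lowest for both plasmas. At 5000 peaks the 3 shares were 69.2% (untreated ipsilateral), 69.9% (13-month ipsilateral) and 64.2% (contralateral) with plasma of 3-month rats, and 69.6%, 71.2% and 64.7% with plasma of 22-month rats. The 13-month contralateral list was left out of this ranking. At 5000 peaks its shares, 72.0% with plasma of 3-month rats and 72.9% with plasma of 22-month rats, were above all 3. At 20000 peaks its share with plasma of 22-month rats was 80.44%, against 80.3% for untreated ipsilateral tissue.

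The plasma lists, which share a processing run, were compared with each other in the same way. Plasma of 3-month rats overlapped plasma of 22-month rats (52.2%) more than untreated ipsilateral tissue (47.8%) and less than 21-month contralateral tissue (59.0%). In the other direction, plasma of 22-month rats overlapped plasma of 3-month rats (44.6%) less than any untreated list. At promoters 84.1% of peaks with plasma of 3-month rats had a peak with plasma of 22-month rats, and 75.6% the other way. At distal sites the shares were 17.2% and 14.8%. Each plasma group has 1 library, so the distance between these libraries cannot be told apart from variation between animals.

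Sharing followed the strength of a peak. The strongest 5000 peaks of each plasma list were all promoter-type, and all of them had an untreated peak of some strength. Among the strongest 10000 with plasma of 3-month rats 99.8% were found in the full untreated list. When the untreated list was split into 10 rank bins of equal size by −log10 q, promoter-type peaks of bin 1 had a peak with plasma of 3-month rats in 99.9% of cases and with plasma of 22-month rats in 100%. In bin 5 these shares were 49.9% and 80.4%, and in bin 10 they were 34.6% and 53.3%. Contralateral 21-month tissue lay between, with 62.5% and 45.7%.

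Few distal peaks ranked high. Bins 1 and 2 held 1 and 16 untreated distal peaks, of which 1 and 13 were found with plasma of 3-month rats and 1 and 15 with plasma of 22-month rats. In bin 3, with 492 distal peaks, 47.2% were found with plasma of 3-month rats, 87.4% with plasma of 22-month rats and 85.4% in 21-month contralateral tissue. In bin 10 the shares were 9.1%, 23.7% and 17.4%. From bin 3 on, plasma of 3-month rats thus had the lowest share of the 3 lists.

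**Figure D2:**
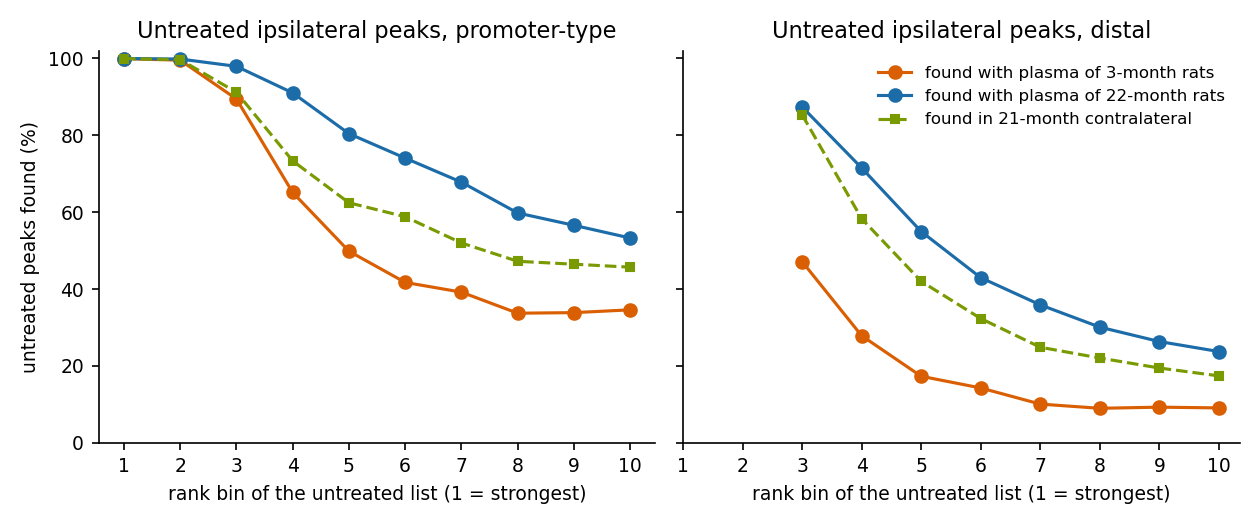
Share of untreated ipsilateral H3K9ac peaks (vertical axis, %) found in each of 3 other lists, by rank bin of the untreated list (horizontal axis) from strongest (1) to weakest (10), every list cut to 50651 peaks; distal bins 1 and 2 hold too few peaks to plot. For distal peaks the curve for plasma of 3-month rats starts at 47.2%, well under the 87.4% for plasma of 22-month rats and the 85.4% for 21-month contralateral tissue.

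Peaks without a counterpart were weaker than shared ones at promoters. With plasma of 3-month rats the median fold was 3.28 without and 4.02 with an untreated peak, and median lengths were 365 and 974 bp. The corresponding medians with plasma of 22-month rats were 4.08 and 7.94. At distal sites with plasma of 3-month rats fold gave the opposite order and −log10 q the same one. The median fold was 3.24 for the 20755 peaks without an untreated peak and 2.66 for the 3436 with one, whereas the median −log10 q was 4.04 and 4.46. Distal peaks with plasma of 22-month rats had a median of 3.96 without and 4.15 with one. Where distal peaks were shared, summits lay a median of 134.5 bp apart with plasma of 3-month rats and 145 bp with plasma of 22-month rats, and at promoters 84 and 78 bp.

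Strong peaks with no counterpart of any strength were rare at promoters, which held nearly all of the strong peaks. Of peaks with fold 8 or more, 681 of 682 with plasma of 3-month rats were promoter-type. With plasma of 22-month rats 10224 of 10261 were, and in untreated tissue 5694 of 5736. Among peaks of fold 8 or more, 3 of 682 with plasma of 3-month rats and 9 of 10261 with plasma of 22-month rats lacked an untreated peak. In the other direction 72 of 5736 untreated peaks had none with plasma of 3-month rats and 22 had none with plasma of 22-month rats. Of 42 strong untreated distal peaks, 18 (42.9%) had no peak with plasma of 3-month rats and 4 (9.52%) had none with plasma of 22-month rats. Over all distal peaks of the uncut untreated list these shares were 90.9% and 51.4%. At a fold of 4 or more, 2494 of 3237 distal peaks (77.0%) with plasma of 3-month rats had no untreated peak. With plasma of 22-month rats 5068 of 13151 (38.5%) had none. Over all distal peaks of the uncut plasma lists the shares were 74.6% and 64.7%.

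Some promoters with an H3K9ac peak after plasma lacked one in untreated tissue. The strongest with plasma of 3-month rats was chr5:48047123-48047691, with a fold of 7.68 at an H3K4me3 peak of fold 13.8. It was also a peak with plasma of 22-month rats (11.6), in 13-month ipsilateral (10.6), 13-month contralateral (9.15) and 21-month contralateral tissue (6.11), so the untreated 21-month ipsilateral list stood alone in having none. The third, chr5:86554322-86554816, followed the same pattern, with a fold of 7.50 in the list that chose it and of 9.32 with plasma of 22-month rats. The second, chr1:39255458-39256726, had a fold of 8.50 with plasma of 3-month rats and was otherwise listed only in 21-month contralateral tissue, at 2.59. Folds are each list's own and are given to show presence, not a change of level.

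The strongest such promoter with plasma of 22-month rats was chr20:2706413-2707271, with a fold of 13.6, listed elsewhere only in 13-month contralateral tissue at 3.60. The next, chr14:2867487-2867996 and chr14:86706916-86707696, had folds of 8.91 and 9.29. Both were also peaks with plasma of 3-month rats and in the other 3 references. At distal sites, chr20:132270-132823 (fold 10.6) was otherwise listed in 13-month contralateral tissue only. A peak at chr1:281947283-281948032 (fold 9.45) had a weak counterpart with plasma of 3-month rats, of fold 1.95, and none in the 4 untreated lists. The remaining one, chr19:28660418-28660815 (fold 5.11), was also listed on both sides of the brain at 13 months.

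The 6 untreated peaks taken by the rule for lacking a peak with plasma of 3-month rats were present in every other H3K9ac list. At promoters these were chr10:85345376-85346238, chr10:75356737-75357101 and chr2:120498241-120498611, with untreated folds of 4.65, 19.3 and 15.7. The second was a peak of fold 5.09 with plasma of 22-month rats and of 5.66 to 10.6 in the other references. At distal sites they were chr5:172633871-172636214, chr8:69007330-69007836 and chr8:53066435-53067844, with untreated folds of 9.05, 7.07 and 10.5. In the list with plasma of 22-month rats they had folds of 5.005, 6.63 and 3.27.

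Untreated peaks lacking with plasma of 22-month rats included chr9:1984473-1984841 and chr3:147550955-147552251, of folds 13.3 and 6.15, which were still listed with plasma of 3-month rats at 5.62 and 3.19. The promoter at chr6:74079062-74079542 (14.3) was absent with both plasmas and in 13-month ipsilateral tissue, and was listed on both contralateral sides. The distal peaks chr6:99565830-99566891 (5.24) and chr6:110814136-110814900 (8.11) were absent with both plasmas and listed in all 3 references. The distal peak chr7:37963937-37964393 (8.19) was listed in no other H3K9ac list. All of these regions were taken by a rule of highest −log10 q among peaks with no counterpart, and their absence elsewhere follows from it.

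Strong untreated peaks kept by both plasma lists show the common part. At chrX:63203086-63204924 the untreated fold was 19.1, with 6.53 after plasma of 3-month rats and 17.3 after plasma of 22-month rats. At chr12:38871986-38878107, a domain of 6122 bp, the folds were 16.1, 6.99 and 16.3. Distal examples were chr3:80858204-80861903, with folds of 8.48, 2.81 and 4.90, and chr20:29462614-29467372, with 7.92, 3.09 and 6.42. The rule took the 10 shared peaks by highest untreated −log10 q, and folds are each list's own. Among them plasma of 3-month rats had the lowest of these 3 folds in 9, which does not show a change of level. The exception was the distal peak chr7:141983433-141984491, with 12.9 untreated, 4.83 with plasma of 3-month rats and 3.04 with plasma of 22-month rats. The 21-month contralateral list, at 5.80 and 5.24, was lower still at the examples on chromosomes X and 12. Among promoter-type peaks of the lists cut to 50651, the median fold was 3.74 with plasma of 3-month rats. It was 6.77 with plasma of 22-month rats and 5.33 untreated. Over all peaks of the uncut lists, which differ in length, the medians were 3.39, 3.37 and 2.96, so this order did not hold there.

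Seen from the promoters, most H3K4me3 peaks of untreated tissue carried H3K9ac in each group. Of 30356 H3K4me3 peaks, 62.4% overlapped an H3K9ac peak with plasma of 3-month rats, 70.1% with plasma of 22-month rats and 67.4% without plasma, at the equal number of peaks. The other references ran from 66.0% to 67.4%, so plasma of 3-month rats was lowest and plasma of 22-month rats highest of the 6 lists. The centre of H3K4me3 peaks was covered in 55.6%, 67.6% and 63.4% of cases. At 1 kb from the centre, averaged over both sides, coverage was 20.4%, 30.7% and 21.4%, and at 2 kb it was 8.44%, 13.2% and 9.53%. The acetylated stretch was thus widest with plasma of 22-month rats, whose peaks were also longest.

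**Figure D3:**
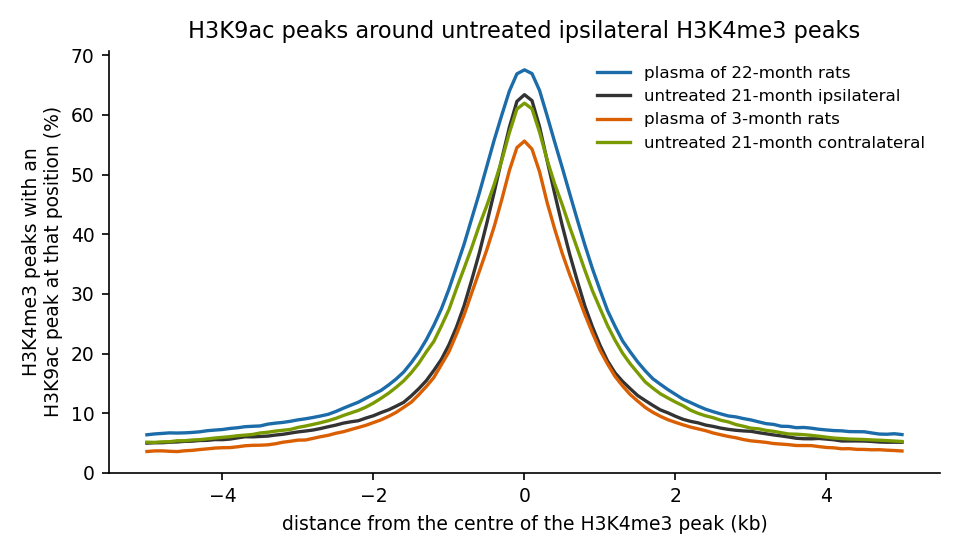
Share of the 30356 untreated ipsilateral H3K4me3 peaks (vertical axis, %) with an H3K9ac peak at each distance from their centre (horizontal axis, kb), every H3K9ac list cut to 50651 peaks. The line for plasma of 3-month rats peaks lowest, at 55.6%, and that for plasma of 22-month rats highest and widest, at 67.6%.

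H3K4me3 peaks with H3K9ac in untreated tissue and none after plasma of 3-month rats were often marked by H3K27me3. For plasma of 3-month rats, 17196 H3K4me3 peaks had H3K9ac in both groups, 3274 in untreated tissue only, 1732 with plasma only and 8154 in neither. H3K27me3 of untreated 21-month ipsilateral tissue overlapped 26.3%, 51.9%, 12.8% and 26.2% of them. For plasma of 22-month rats the numbers were 19225, 1245, 2041 and 7845, and the shares with H3K27me3 29.4%, 46.7%, 26.6% and 23.1%. Promoters acetylated in untreated tissue only were therefore the richest in H3K27me3 for either plasma (51.9% and 46.7%). Promoters acetylated with plasma only were poor in it for plasma of 3-month rats and near the level of shared promoters for plasma of 22-month rats.

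These one-sided promoters were weak ones. The median H3K4me3 fold was 3.55 for untreated only and 3.77 for plasma of 3-month rats only, against 10.7 where both had H3K9ac. Of the 1732 with plasma of 3-month rats only, 69.5% had H3K9ac in 21-month contralateral tissue and 49.3% in 13-month ipsilateral tissue. Of the 2041 with plasma of 22-month rats only, the shares were 56.5% and 48.7%.

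Overlap with H3K27me3 also separated the distal peaks. Of distal peaks with plasma of 3-month rats, 1096 of 24191 (4.53%, interval 4.28 to 4.80) overlapped H3K27me3 of untreated 21-month ipsilateral tissue. The shares were 14.1% with plasma of 22-month rats and 13.8% in untreated tissue. Contralateral 21-month tissue was close to the first, at 5.34%, and the 13-month lists lay between, at 8.93% (ipsilateral) and 11.8% (contralateral). With the H3K27me3 list of the contralateral side the shares were 4.80%, 23.4% and 24.3% for the plasmas and untreated tissue, and 7.75% for the 21-month contralateral H3K9ac list. The strongest 8000 distal peaks of each list gave 4.64%, 15.0% and 15.2%, and 5.85% for the contralateral list. Distal H3K9ac with plasma of 3-month rats thus had the lowest overlap with either H3K27me3 list among the 6 H3K9ac lists, and 21-month contralateral tissue was next.

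At promoters plasma of 3-month rats and 21-month contralateral tissue were again the lowest, with smaller differences. H3K27me3 overlapped 20.6% of promoter-type peaks with plasma of 3-month rats, 27.3% with plasma of 22-month rats, 27.8% in untreated tissue and 21.5% in 21-month contralateral tissue. Untreated promoter-type peaks with no peak after plasma of 3-month rats overlapped H3K27me3 in 37.1% of cases, and those with one in 24.6%. Peaks with plasma of 3-month rats and no untreated peak did so in 7.01%, and those with an untreated peak in 24.3%. A peak that carries both marks in these lists need not carry both in the same cells, since the tissue is mixed.

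**Figure D4:**
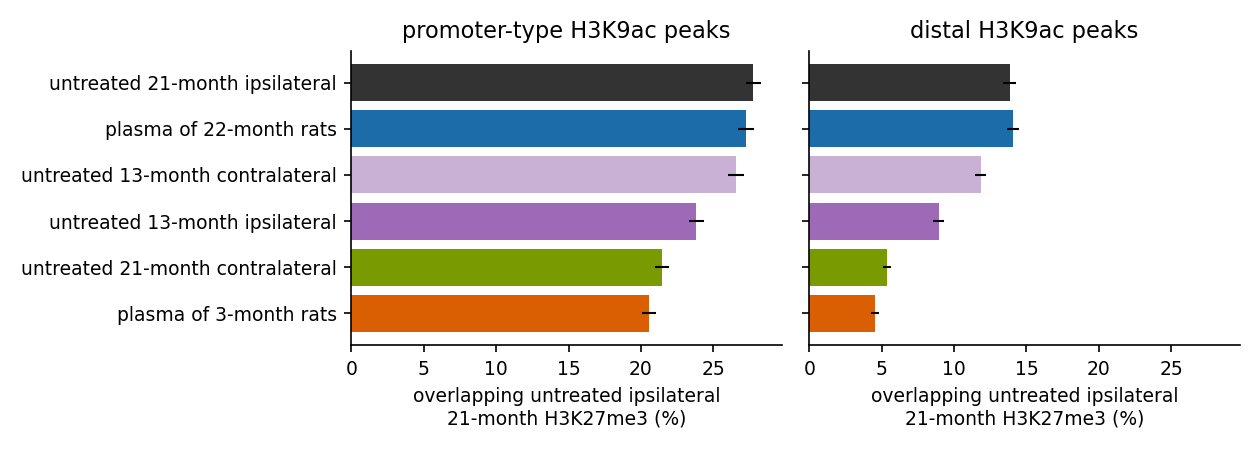
Share of H3K9ac peaks of each list (horizontal axis, %) that overlap an H3K27me3 peak of untreated 21-month ipsilateral tissue, promoter-type on the left and distal on the right, every list cut to 50651 peaks; thin bars are 95% Wilson intervals over peaks. At distal sites plasma of 3-month rats (4.53%) lies beside 21-month contralateral tissue (5.34%), and plasma of 22-month rats (14.1%) beside untreated ipsilateral tissue (13.8%).

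The place of distal peaks along the genome followed the same division. On chromosome 12 there were 7.27 distal peaks per Mb with plasma of 3-month rats, against 23.1 with plasma of 22-month rats, 22.5 in untreated tissue and 12.2 in 21-month contralateral tissue. Chromosome 20 had 7.31, 15.3, 12.7 and 9.70 per Mb and chromosome 19 had 8.82, 16.4, 16.5 and 11.5. On chromosome 2, in contrast, the densities were 8.39, 4.62, 4.25 and 7.21 per Mb. Across the 20 autosomes the densest exceeded the sparsest 2.47-fold with plasma of 3-month rats, 5.01-fold with plasma of 22-month rats, 5.29-fold in untreated tissue and 2.27-fold in 21-month contralateral tissue. These chromosomes were named after their values were seen. Among the strongest 8000 distal peaks chromosome 12 held 1.65%, 5.19%, 5.43% and 2.45%. Base composition was not measured and its part in the densities was not tested.

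**Figure D5:**
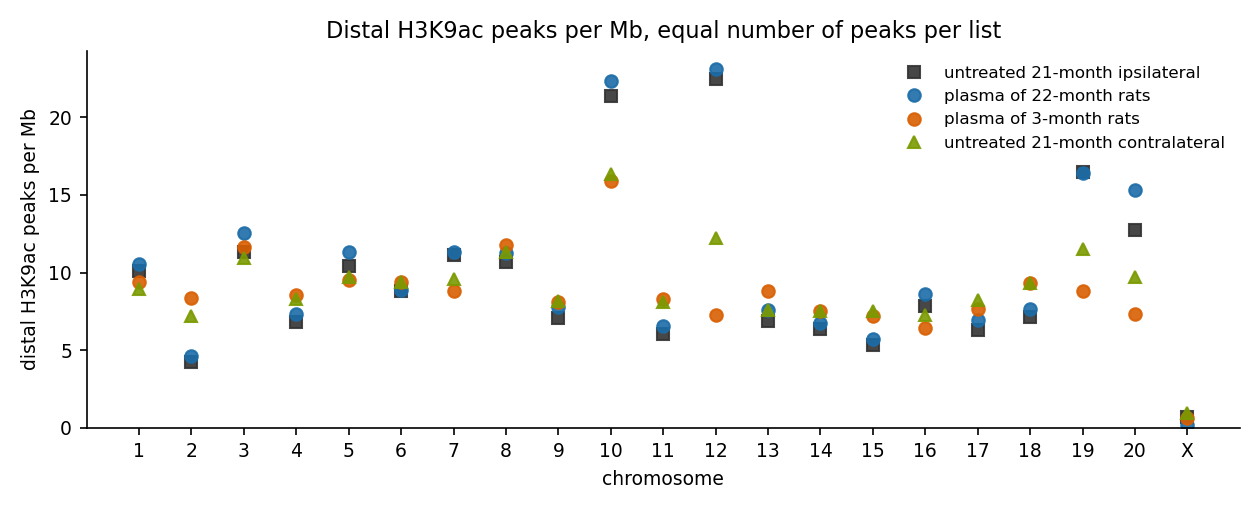
Distal H3K9ac peaks per Mb (vertical axis) on each chromosome (horizontal axis) in 4 lists, every list cut to 50651 peaks; a point is 1 list. On chromosomes 10, 12, 19 and 20 the points for plasma of 22-month rats and untreated ipsilateral tissue lie above those for plasma of 3-month rats and 21-month contralateral tissue, and on chromosome 2 below them.

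Counts of distal peaks in 2628 windows of 1 Mb on the autosomes gave the same grouping. The Pearson correlation of counts was 0.96 between plasma of 22-month rats and untreated ipsilateral tissue (Spearman 0.93). This was not particular to the same side and age. Plasma of 22-month rats gave 0.95 with 13-month contralateral and 0.91 with 13-month ipsilateral tissue. Untreated ipsilateral tissue gave 0.96 and 0.92 with the same lists. Between plasma of 3-month rats and untreated ipsilateral tissue it was 0.51 (Spearman 0.70), and with 21-month contralateral tissue 0.84 (Spearman 0.88). With 13-month ipsilateral tissue plasma of 3-month rats gave 0.66 (Spearman 0.79). Untreated ipsilateral and contralateral tissue at 21 months gave 0.76 (Spearman 0.84), and the plasmas with each other 0.52 (Spearman 0.72). Windows share base composition, mappability and gene density between all lists, so the values are descriptions and have no test.

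Distance from promoters did not set the distal peaks apart. The median distance to the nearest H3K4me3 peak was 16795 bp with plasma of 3-month rats, 15367 bp with plasma of 22-month rats, 15776 bp in untreated tissue and 17788 bp in 21-month contralateral tissue.

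Every list was cut to 50651 peaks for the next comparison. Many distal peaks of either plasma list lay in none of 3 cut references, from untreated 21-month ipsilateral, 21-month contralateral and 13-month ipsilateral tissue. The number was 14692 of 24191 (60.7%) with plasma of 3-month rats and 12660 of 25816 (49.0%) with plasma of 22-month rats. These shares depend on the cut, since 56.8% of the same 24191 peaks overlapped the full 21-month contralateral list. No such share is given here for an untreated list. With plasma of 3-month rats, 3997 (16.5%) lay in the contralateral list alone, 954 (3.94%) in the 13-month list alone and 803 (3.32%) in the untreated ipsilateral list alone. For plasma of 22-month rats the numbers were 1836 (7.11%), 1458 (5.65%) and 3155 (12.2%). Those in none of the references had a median fold of 3.22 with plasma of 3-month rats, between 2.66 for peaks in the untreated ipsilateral list alone and 3.39 for peaks in the contralateral list alone. Their median −log10 q, 3.86, was the lowest of these groups, and their median length, 308 bp, the shortest.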

How the data were processed

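Sheared chromatin was immunoprecipitated and sequenced on a NextSeq 500, per the labels' protocols. Cutadapt, Bowtie2 and HOMER were also used, per the submitters' processing notes, in steps not described there. Peaks were called with MACS 2.1.1.20160309 at a q-value cutoff of 0.05 against input, on the pooled libraries of a group, per the file headers. Per the file headers each peak has a pileup, a signal (coverage) value that was not used between lists. It has a fold enrichment, a ratio to local background computed by the authors. The authors also give a −log10 q-value for each peak. No header or label names the genome build. The gene table at hand is on GRCr8, so no gene, sequence, gene list or cell type marker was placed, and regions took the place of genes.

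Lists were cut to 50651 peaks by −log10 q. Overlap was computed in Python 3.11.15 with numpy 2.4.6 and pandas 2.3.3, and checked against bedtools 2.31.1. Tested on 8 simulated pairs of lists, the overlap count matched the number made in every pair. Pairs made to share 200 peaks gave all of them, and pairs made without the required overlap gave no shared peak. No test across replicates was possible. For named regions the rule took the 3 peaks of highest −log10 q without a counterpart per direction and class, and the 5 strongest shared peaks per class. All groups, lists and rules were chosen with earlier results of these data known. The comparison of the strongest 8000 distal peaks, the 1 Mb windows and the named chromosomes were chosen after seeing the data. Alternatives varied the number of peaks, ranking, overlap, summit windows, joining, −log10 q and the definition of a promoter-type peak.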

Additional observations from a re-analysis of the deposited data

How the results depend on the processing

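Under the alternatives 109 recomputed values stayed within 1.5 times the main count and 31 moved, nearly all because fewer or more peaks were counted. With 10000 peaks per list the shared counts with plasma of 3-month rats were 8552 (untreated, all and promoter-type), 8610 (13-month ipsilateral) and 8237 (contralateral), with 0 of 17 distal peaks shared. With plasma of 22-month rats they were 8610 (8609 promoter-type), 8639 and 8114, with 1 of 5 distal. Promoter-type peaks numbered 9983, 9995 and 9987 for the plasmas and untreated tissue. With 20000 peaks the counts were 15132, 15126 and 15510 for plasma of 3-month rats (212 distal with untreated) and 16063, 15271 and 14900 for plasma of 22-month rats (777 distal). Promoter-type peaks then numbered 17244 with plasma of 3-month rats and 17479 untreated. Uncut, the distal count with plasma of 3-month rats was 6155. With plasma of 22-month rats the uncut counts were 57474 (31218 distal), 41022 and 54730. At −log10 q of 5 or more, 1967 of 8464 distal peaks with plasma of 3-month rats (23.2%) were shared with untreated tissue and 44.0% with the contralateral list. In that setting 42.4% of distal peaks with plasma of 22-month rats were shared with untreated tissue. Promoter-type shares were 89.2% with plasma of 3-month rats and 85.0% with plasma of 22-month rats. Over all peaks they were 69.9% and 62.3%, so both orders were the reverse of the main setting. The strongest 8000 distal peaks gave 722 and 2688. Ranking by fold, a stricter overlap, summit windows, joined peaks, assembled chromosomes and other promoter definitions moved no count by over 1.5 times. Ranking by fold still narrowed the contrast between plasma of 3-month and of 22-month rats. Distal shares with untreated tissue were then 16.7% and 24.9%, against 14.2% and 34.7% in the main setting. Promoter-type shares were 78.3% and 79.3%, against 78.5% and 82.8%.

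No paired analysis was possible because the lists pool the libraries of a group and give no value per library, and for the same reason leaving out a replicate was not run. The list with plasma of 3-month rats ends at its weakest call, so its weaker distal peaks are the least certain values here.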

Other observations

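The leading distal peaks with plasma of 3-month rats that had no untreated peak lay together on chromosome 1. They were chr1:180902579-180902959 (fold 3.39), chr1:181197488-181197823 (fold 8.21) and chr1:180719359-180719668 (fold 2.79), and the stretch of 478 kb that they span held 27 H3K9ac peaks with plasma of 3-month rats. In the surrounding 1 Mb (chr1:180500001-181500000) that list had 40 peaks and the other 5 H3K9ac lists had none. The stretch was not silent in the other marks. H3K27me3 peaks there numbered 132 in 13-month contralateral tissue, 116 with plasma of 22-month rats and 71 with plasma of 3-month rats. There were 26 in 21-month contralateral tissue and 0 in untreated ipsilateral tissue at either age. For H3K4me3 there were 30 (contralateral) and 22 (ipsilateral) peaks in 13-month tissue, and 19 and 6 in 21-month tissue. The stretch was chosen after its values were seen, and what sets the presence of peaks there was not tested.

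The X chromosome held few distal H3K9ac peaks in any list, and fewest with plasma of 22-month rats. There were 30 distal peaks on it (0.19 per Mb) with that plasma, 101 (0.63 per Mb) with plasma of 3-month rats and 113 (0.71 per Mb) in untreated ipsilateral tissue. The untreated references had 79 to 152.

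The densest 1 Mb windows of distal peaks with plasma of 3-month rats were dense in every H3K9ac list. The first, chr10:74000000-74999999, held 106 distal peaks with that plasma, 86 in 21-month contralateral tissue, 46 with plasma of 22-month rats and 42 in untreated ipsilateral tissue.

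H3K27me3 lists made with plasma were short, at 37241 peaks for plasma of 3-month rats and 51178 for plasma of 22-month rats, against 300668 in untreated ipsilateral tissue. They covered 17.6 and 21.6 Mb, against 161.3 Mb for the untreated ipsilateral list. Of the distal H3K9ac peaks of their own group they overlapped 0.95% with plasma of 3-month rats and 0.96% with plasma of 22-month rats. The overlap that such coverage alone would give was not computed.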
